A study of Homo sapiens with 2 samples.

Results

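The transforming growth factor beta (TGF-beta) and bone morphogenetic protein (BMP) pathways were examined through 9 of their genes in a map of N6-methyladenosine (m6A), the commonest internal methyl mark of messenger RNA. The genes were chosen by role. SKI, SMAD6 and SMAD7 are inhibitors, SMAD3, SMAD4 and SMAD5 are transducers, and TGFBR1, BMPR2 and ACVR2B are receptors. They are 9 of the 9521 named genes with a site listed in both libraries. The cells were wild-type HEK293T, an established human embryonic kidney line, at day 0, and the only treatment the labels name is GLORI, the chemistry of the assay. In GLORI, adenosines without the methyl group are deaminated to inosine and appear as G in the reads, whereas m6A is protected and still appears as A. There is 1 group with 2 replicates, and nothing in the labels tells whether each had its own culture, so differences between them may be technical. The p-values between replicates set 1 library against 1 library. They weigh a difference against read-counting error only and carry no spread between libraries or cultures.

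In this signalling system a ligand brings a type II and a type I receptor kinase together, and the type I receptor then phosphorylates receptor-activated SMAD proteins, which join SMAD4 and move to the nucleus to regulate transcription. SMAD3 serves the TGF-beta and activin branch and SMAD5 the BMP branch. The inhibitory SMADs block receptors and receptor-activated SMADs, and SKI holds SMAD complexes in a repressed state on DNA. m6A is placed mainly at adenosines in a short sequence context whose commonest form reads GGACT in DNA letters, and it is known to shorten the life of many messenger RNAs.

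The 9 genes had 131 listed sites in replicate 1 and 143 in replicate 2, of 72449 and 81554 in all. They shared 113 sites, and 161 were listed in at least 1 library. The level of a site is the percentage of its A or G reads that are A, averaged over both libraries for a shared site. Reads of A or G per member site ran from 15 to 158 in replicate 1 and from 15 to 205 in replicate 2, with a median of 39 in both. Both lists hold only sites with at least 15 reads, 5 A reads and a level of 10%. By these minimums the lowest level that can be listed is 33.3% at 15 reads and 16.7% at 30 reads. The authors' adjusted p-value, from a test not named in the sources used here, was at most 0.00401 at listed sites of either library. The true lowest level may therefore be higher and may differ between genes. An unlisted adenosine may lack methylation or depth.

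SKI had the most sites of the 9 genes. It lists 29 in each library, of which 28 are shared, against a median of 4 shared sites among the 952 genes in its coverage decile (all named genes ranked by the authors' gene coverage and divided into 10 equal parts). SMAD3 followed with 28 sites in replicate 1 and 25 in replicate 2 (23 shared, against 5), and SMAD6 with 21 and 24 (19 shared, against 4). SMAD5 and BMPR2 shared 12 sites each, against medians of 5 and 4, ACVR2B shared 10 against 5, and TGFBR1 shared 5 against 3. SMAD7 and SMAD4 shared 2 each, against 3 and 5. In all, 7 of the 9 genes exceeded the median of genes of like coverage, which 45.1% of all named genes do. No test was made of this count, because the genes were chosen with earlier results of these data known. The counts are not scaled to transcript length.

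**Figure D1:**
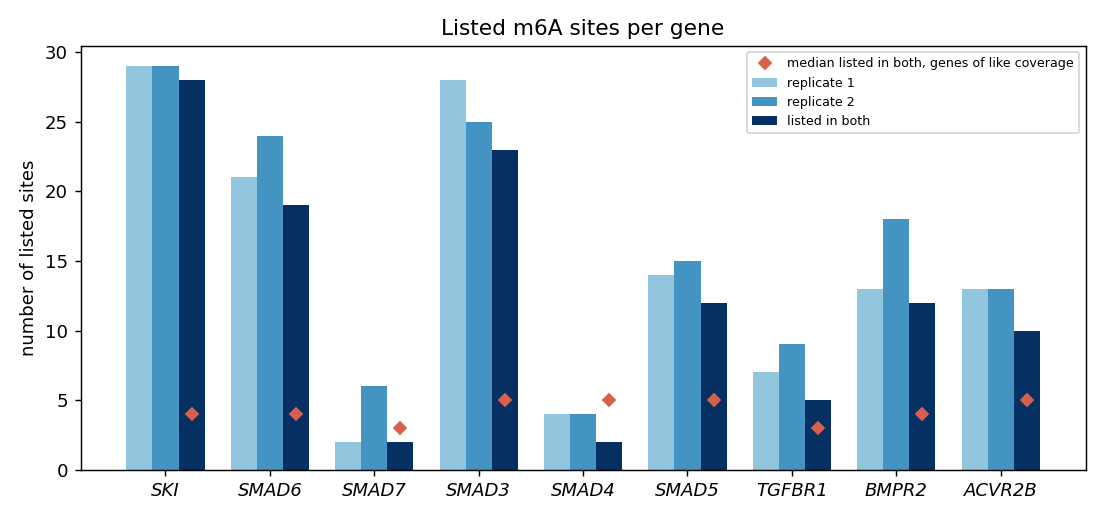
Number of listed m6A sites (vertical axis) in each of the 9 genes, inhibitors at the left, then transducers and receptors. Bars give replicate 1, replicate 2 and the sites listed in both, and diamonds the median number listed in both among genes of like coverage; SKI, SMAD3 and SMAD6 lie far above their diamonds with 28, 23 and 19 sites, while SMAD7 and SMAD4 lie below theirs with 2 each.

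The first comparison asked how well the replicates matched at these sites. Levels followed the line of equality, from 12.5% at a BMPR2 site to 100% at a SMAD3 site. The median absolute difference was 5.10 percentage points over the 113 sites and the largest 26.3, against a median of 4.87 points over all named genes. Fisher's exact test (two-sided, Benjamini-Hochberg adjustment over all 60462 shared sites of the series) called 0 of the 113 sites, and 0.00% of all shared sites. The lowest adjusted p was 1. An unadjusted p under 0.05 was found at 5 of the 113 sites (4.42%), and at 3.06% of all shared sites. The lowest unadjusted p was 0.00577, at position 67190909 of chromosome 15 in SMAD3, where 56 of 58 reads in replicate 1 and 53 of 66 in replicate 2 were A. The chi-square for a difference in level averaged 1.15 over the 113 sites and 0.933 over all named genes. Because the labels do not separate cultures, the libraries were counted as 1 sample. The absence of calls cannot decide this, since separate cultures could also give none. A site that is not called may still differ. The largest difference, 26.3 points at position 99152883 of TGFBR1, had an unadjusted p of 0.166 by Fisher's exact test. Sites listed in 1 library only were not tested. Errors below are therefore counting errors (SE, or 95% Wilson intervals on summed reads) and carry no spread between cultures. Reads are not shown to be separate molecules.

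**Figure D2:**
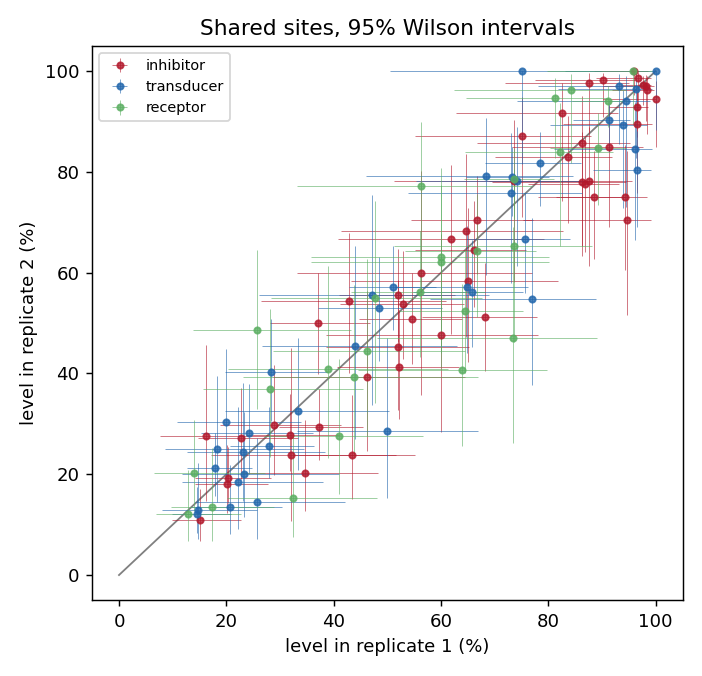
Level of each of the 113 shared sites in replicate 1 (horizontal axis, %) and replicate 2 (vertical axis, %), coloured by role, with 95% Wilson intervals of each library and the line of equality. The sites of all roles follow the line, and the largest departure is 26.3 percentage points.

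A further 48 sites were listed in 1 library only, 18 in replicate 1 and 30 in replicate 2. Their levels were low, with a median of 26.4%, and 31 of them lay under 30%. Their median depth was 30.5 reads. The share of one-library sites differed widely between genes, from 2 of 30 in SKI to 4 of 6 in SMAD7 and 4 of 6 in SMAD4.

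Among the inhibitors, SKI encodes a nuclear corepressor that binds SMAD3 and SMAD4. It lies at chr1:2228319-2310213 (plus strand, GRCh38). Its mean level over shared sites was 59.9% ± 0.63 (counting SE, 1 sample, 28 sites), 60.7% in replicate 1 and 59.2% in replicate 2. Single sites covered nearly the whole listed range, and 11 of the 28 were at 80% or above, 7 of them at 90% or above. The highest, position 2308291, had 70 of 73 A reads in replicate 1 and 76 of 76 in replicate 2, a mean level of 97.9% (interval 94.2 to 99.3). The deepest shared site was position 2229149, with 25 of 123 and 37 of 192 A reads, a level of 19.8% (15.7 to 24.4).

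The sites of SKI formed 2 blocks, taken here as runs with no gap over 2000 nt. The first held 9 shared sites between 505 and 1258 nt from the annotated start of the gene, and the second held 19 within 3290 nt of its end. Levels averaged 49.2% in the first block and 65.01% in the second. Each block mixed nearly full and weak sites, and 5 of the sites at 90% or above lay in the second block.

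Neighbouring adenosines of SKI differed sharply. Position 2229512 was methylated at 97.6% in replicate 1 (124 of 127 reads) and 97.3% in replicate 2 (145 of 149). Position 2229527, 15 nt downstream, had 15.1% and 10.9%, the lowest mean level of the gene at 13.0% (9.29 to 17.5). The difference of 84.5 points is the widest of the 23 adjacent pairs at most 30 nt apart in the 9 genes. Positions 2308284 and 2308291, 7 nt apart, had 28.8% and 95.9% in replicate 1, and 29.7% and 100% in replicate 2. Both contrasts were present in each library. Among all 23 pairs the median difference was 28.4 points and 2 exceeded 50 points (8.70%), against a median of 23.9 and a share of 19.8% over 10265 such pairs in named genes.

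SMAD6, at chr15:66702236-66782849 (plus strand), encodes an inhibitory SMAD that acts mainly on BMP signalling. Its mean level was 67.6% ± 1.3 over 19 shared sites, 70.03% in replicate 1 and 65.3% in replicate 2. No shared site lay under 20%, and 9 of 19 were at 80% or above. The highest, position 66702887, had 35 of 35 A reads in replicate 1 and 51 of 54 in replicate 2 (97.2%, interval 90.6 to 98.8). The lowest, position 66703677, had 8 of 25 and 5 of 21 (27.9%, 17.3 to 42.5), and the deepest, position 66702602, had 30 of 69 and 15 of 63 (33.6%, 26.6 to 42.5). Coverage was low, with medians of 26 and 36 reads per shared site, so weak sites of SMAD6 had little chance of being listed. The authors' conversion fraction for the gene was 94.8% in replicate 1 and 95.2% in replicate 2, and 3.98% and 5.49% of genes had a lower one. Corrected for it, the mean of SMAD6 was 66.0%. With at least 50 reads it was 41.1%, over 2 sites.

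Most SMAD6 sites gathered at the start of the gene. Of its 19 shared sites, 16 lay between 163 and 1588 nt from the annotated start, where 22 sites were listed in either library within 2 kb. They had a mean level of 69.1%, running from 27.9% to 97.2%. The other 3 shared sites lay 4049 nt from the start and, as a pair, about 79 kb into the gene. That pair, positions 66781616 and 66781631, had 60% and 94.7% in replicate 1 and 47.6% and 70.4% in replicate 2.

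SMAD7, at chr18:48919853-48950965 (minus strand), encodes the inhibitory SMAD that binds type I receptors of both branches. It was the most weakly covered of the 9 genes (authors' gene coverage 14.4 and 17.1). Its 2 shared sites lay 514 and 550 nt from the annotated start. Position 48950451 had 73.7% in replicate 1 (14 of 19 reads) and 78.3% in replicate 2 (18 of 23), and position 48950415 had 86.4% (19 of 22) and 85.7% (18 of 21). Their mean was 81.0% ± 4.2. Replicate 2 listed 4 more sites, within 1903 nt of the end of the gene, at 93.3% (14 of 15), 90.9% (20 of 22), 69.6% (16 of 23) and 18.5% (5 of 27). With these the mean of replicate 2 was 72.7% over 6 sites.

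Among the transducers, SMAD3 lies at chr15:67065602-67195169 (plus strand). Its mean level was 56.8% ± 1.01 over 23 shared sites, 57.1% in replicate 1 and 56.5% in replicate 2. With at least 30 reads in both libraries it was 35.4%, over 11 sites. A single shared site lay near the annotated start, at position 67065781, 179 nt into the gene, with 27 of 29 and 34 of 35 A reads (95.1%, interval 87.1 to 98.4). The other 22 lay in one block of 4497 nt that ends 253 nt before the end of the gene. The last of them, position 67194916, was A in 19 of 19 reads of replicate 1 and 29 of 29 of replicate 2 (100%, interval 92.6 to 100). The lowest, position 67190973, had 9 of 61 and 10 of 77 (13.9%, 8.99 to 20.5), and the deepest, position 67190993, 20 nt on, had 18 of 87 and 13 of 96 (17.1%, 12.2 to 23.0). SMAD3 thus held the one shared site of the 9 genes read as A throughout, as well as weak ones, and 7 of its 23 sites were at 80% or above.

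SMAD4, at chr18:51030213-51085042 (plus strand), encodes the common partner of all receptor-activated SMADs. Only 2 of its sites were shared. Position 51078463 had 78.5% in replicate 1 (62 of 79 reads) and 81.7% in replicate 2 (85 A reads), a mean of 80.1% (interval 74.0 to 85.4), and position 51078510, 47 nt on, had 25 of 26 and 22 of 26 (90.4%, 79.4 to 95.8). Each library listed 2 more sites that the other did not, at 17.9% and 16.9% in replicate 1 and at 20% and 27.8% in replicate 2. The mean of SMAD4 was therefore 85.2% ± 2.5 over shared sites, but 52.4% over the 4 sites of replicate 1 and 53.5% over the 4 of replicate 2.

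SMAD5, at chr5:136132845-136182733 (plus strand), was the most deeply covered gene per shared site, with medians of 96.5 and 114.5 reads. It had the lowest mean of the 9 genes, 46.2% ± 1.1 over 12 shared sites, 46.1% in replicate 1 and 46.3% in replicate 2. The mean joined unlike stretches of the gene. A block of 322 nt, 20816 nt into the gene, held 7 shared sites with a mean of 63.8%, led by position 136153722 with 91.2% in replicate 1 (114 reads) and 90.2% in replicate 2 (133 reads). The 4 shared sites of the last block, within 5275 nt of the end, lay between 13.4% and 26.8% with a mean of 20.5%. The lowest of these, position 136177458, was also the deepest site of the gene, with 23 of 158 and 25 of 205 A reads (13.4%, 10.1 to 17.1). The levels of the first block did not all exceed those of the last, since position 136153685 had 17.9% and 21.2%.

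Among the receptors, TGFBR1 lies at chr9:99103647-99154192 (plus strand) and encodes the type I receptor kinase of TGF-beta. Its mean was 58.9% ± 3.1 over 5 shared sites, 61.3% in replicate 1 and 56.5% in replicate 2, all of them in the last 10% of the gene. The highest, position 99149509, had 26 of 32 and 36 of 38 A reads (88.0%, interval 79.0 to 94.1) and was also the deepest, together with position 99149468, which had the lowest level with 9 of 32 and 14 of 38 (32.5%, 23.0 to 44.5). These 2 sites lay 41 nt apart. Another 6 sites were listed in 1 library only, from 10.4% to 46.7%.

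BMPR2, at chr2:202376327-202567749 (plus strand), encodes the type II receptor of BMP ligands. Its mean was 55.9% ± 1.5 over 12 shared sites, 56.9% in replicate 1 and 54.9% in replicate 2. Of these, 6 lay between 56 and 881 nt from the annotated start, and 6 in the last 10% of the gene. The highest and the lowest sites both lay in the first stretch. Position 202376854 had 23 of 24 and 33 of 33 A reads (97.9%, interval 90.7 to 99.7), and position 202377062 had 9 of 70 and 10 of 83 (12.5%, 8.10 to 18.6), the lowest shared site of all 9 genes and the deepest of BMPR2. Position 202377052, 10 nt before it, had 64.5% in replicate 1 and 52.5% in replicate 2.

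ACVR2B, at chr3:38453890-38493142 (plus strand), encodes a type II receptor for activins and related ligands. Its mean was 55.2% ± 1.7 over 10 shared sites, 53.1% in replicate 1 and 57.3% in replicate 2. A block of 837 nt about 29 kb into the gene held 8 of them, among them the highest and deepest, position 38483265, with 102 of 112 and 128 of 136 A reads (92.6%, interval 88.8 to 95.4), and the lowest, position 38483652, with 6 of 43 and 15 of 74 (17.1%, 12.05 to 25.9). The other 2 shared sites lay at the start of the gene, 38 and 92 nt in. The first, position 38453928, gave 32 of 57 A reads in each library (56.1%, 47.0 to 64.9), and the second, position 38453982, gave 16 of 39 and 11 of 40 (34.3%, 24.7 to 45.2).

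The site 38 nt into ACVR2B is the only shared site of the 9 genes that falls in a RefSeq sequence window around an annotated start, so its surroundings are shown. The run is chr3:38453917-38453939 of GRCh38.p14, plus strand, 5′ to 3′. The capitals mark the methylated A, base 12 of the run, with 2 bases on each side.
ACVR2B: agccattttGGACTcggttcagc

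These 5 bases are the common context named above. Over the series, all 822 shared sites that fell in a start window of their own gene stood on an A, and of the 819 with 2 bases on each side, 96 (11.7%) stood in the middle of GGACT on the transcribed strand. GGACT, searched on both strands, occurs somewhere in 44.2% of the 35116 windows of 300 nt. That is a share of whole windows and not of single adenosines, so it is no background for the 11.7%.

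Next, the position of sites along the gene was compared with other long genes. Sites within 2 kb of the annotated start made up 36 of the 113 shared sites of the 9 genes (31.9%), against 7.60% of the 27552 shared sites of 4188 protein-coding genes of at least 30 kb, a length that all 9 exceed. Inhibitors had 27 of 49 there (55.1%), and transducers and receptors 9 of 64 (14.1%). By gene the count was 16 of 19 in SMAD6, 9 of 28 in SKI, 2 of 2 in SMAD7, 1 of 23 in SMAD3, 0 in SMAD4, SMAD5 and TGFBR1, 6 of 12 in BMPR2 and 2 of 10 in ACVR2B. Without SMAD6 the share was 20 of 94 (21.3%). At least 5 sites within 2 kb of the start were found in 3 of the 6 members with 10 or more shared sites (SKI, SMAD6 and BMPR2), against 8.04% of the 920 long genes with that many sites.

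The last 10% of the gene held 57 of the 113 sites (50.4%), close to the 55.0% of long genes. Here the order was the other way, with 21 of 49 in inhibitors (42.9%) and 36 of 64 in transducers and receptors (56.3%). SMAD3 and TGFBR1 had 22 of 23 and 5 of 5 of their sites there, SMAD6 2 of 19 and ACVR2B 0 of 10. Median levels were alike in both places, 60.7% within 2 kb of the start and 60.98% elsewhere in the 9 genes, against 40% and 45.9% in all long genes. These shares describe the genes and were not tested. Distances are along the genome from the outermost annotated start, and sites were not assigned to exons or untranslated regions.

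**Figure D3:**
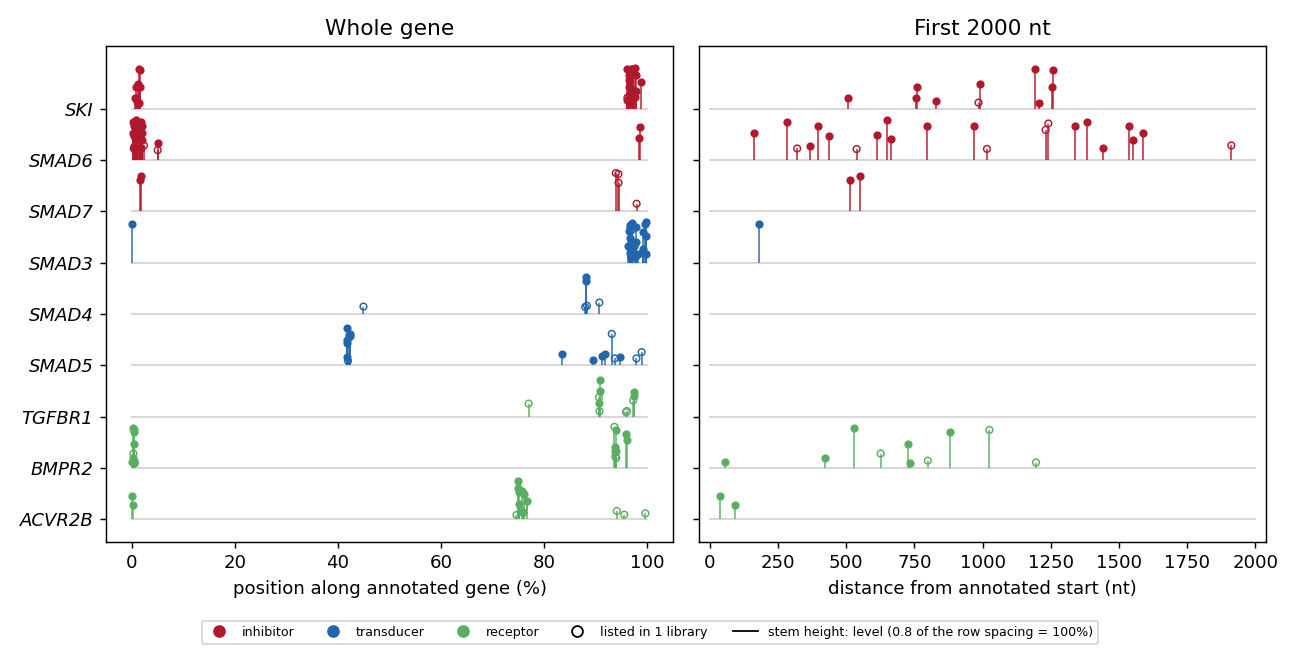
Listed sites along the 9 genes, in the direction of transcription, as percent of the annotated gene (left) and within 2000 nt of its start (right). Each stem is a site and its height the level in summed reads; filled points are shared sites and open points are listed in 1 library. SMAD6 has 16 of its 19 shared sites in the right panel, SKI 9 of 28 and BMPR2 6 of 12, while SMAD4, SMAD5 and TGFBR1 have none there.

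The inhibitors were then compared with the transducers and receptors. The 49 shared sites of the inhibitors had a median level of 65.4% and the 64 of the transducers and receptors 57.3%, against 44.9% over all 56106 shared sites of named genes. Levels of 80% or above were found at 21 of 49 inhibitor sites (42.9%) and 16 of 64 sites of the others (25%), against 20.1% in all named genes. Levels under 20% were found at 3 of 49 (6.12%) and 7 of 64 (10.9%), against 15.2%. As a mean of gene levels, the inhibitors had 69.5% and the others 59.7%, a difference of 9.82 points (95% counting interval 6.50 to 13.1). This difference describes the chosen genes only, and other inhibitors of the pathway are given below.

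Over shared sites, the levels of the 2 groups overlapped through SMAD4 alone. The inhibitors ran from 59.9% (SKI) to 81.0% (SMAD7) and the others from 46.2% (SMAD5) to 85.2% (SMAD4), whose level rests on 2 shared sites, while the next highest of the others was TGFBR1 at 58.9%. Over all listed sites of a single library the groups did not overlap, at 59.1% to 80.02% in inhibitors and 41.5% to 54.6% in the others in replicate 1, and at 58.1% to 72.7% in inhibitors and 43.5% to 56.4% in the others in replicate 2. SMAD4 then had 52.4% and 53.5%, below all 3 inhibitors, and SMAD7 was the highest gene in both libraries, with 2 and 6 sites. In replicate 2 the groups were parted only by SKI at 58.1% and SMAD3 at 56.4%, a gap given no counting interval. The separation holds for the chosen genes only. Further inhibitors with shared sites, given below, ran in replicate 1 from 33.7% (TRIM33) to 71.7% (BAMBI), which reaches into both ranges. Over shared sites the order from high to low was SMAD4, SMAD7, SMAD6, SKI, TGFBR1, SMAD3, BMPR2, ACVR2B and SMAD5. Neighbours differed beyond counting error at 3 steps only, by 13.4 points between SMAD7 and SMAD6 (4.68 to 22.03), by 7.71 between SMAD6 and SKI (4.87 to 10.6) and by 8.99 between ACVR2B and SMAD5 (5.02 to 12.9). From SKI to ACVR2B each step had an interval that includes 0. The spread between sites within a gene was far wider than these steps, with an SD of 30.1 points over the 28 sites of SKI and 27.6 over the 12 of SMAD5.

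The difference between the groups moved with depth and with single genes. Without SMAD7, which has 2 shared sites, it was 4.09 points, and without SMAD4, also with 2, it was 14.9. From all listed sites of replicate 1 alone it was 19.2 points, and with sites under 20% left out 5.99. With at least 30 reads in both libraries it was 14.3 points, and with at least 50 it turned round, to 48.9% in the inhibitors and 57.8% in the others. At that depth only SKI (23 sites, mean 56.7%) and SMAD6 (2 sites, mean 41.1%) were left among the inhibitors, each with the same weight. The mean over sites kept its direction there, with 55.5% in the inhibitors and 52.01% in the others. Among sites with 15 to 29 reads in the shallower library the medians were 71.2% (18 inhibitor sites) and 69.5% (27 sites of the others), against 57.0% in all named genes. Among those with 30 to 49 reads they were 88.6% (6 sites) and 23.9% (13 sites), against 44.0%. Among those with 50 to 99 reads they were 53.6% (18 sites) and 57.3% (16 sites), against 36.4%, and with 100 or more 29.7% (7 sites) and 65.1% (8 sites), against 31.8%. The inhibitors thus had the higher median in the 2 shallower ranges and the lower one in the 2 deeper ranges. The ranges hold different genes, however. All 7 inhibitor sites with 100 or more reads were of SKI, and the 8 of the others were of SMAD5 and ACVR2B. Most of the 6 inhibitor sites with 30 to 49 reads were of SMAD6. Depth and gene therefore cannot be told apart in these medians. The inhibitors' share of sites at 80% or above was the larger in the 3 ranges under 100 reads, with 27.8% against 18.8% at 50 to 99 reads. At 100 or more it was 28.6% against 25%, which is the same number of sites out of 7 and out of 8.

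**Figure D4:**
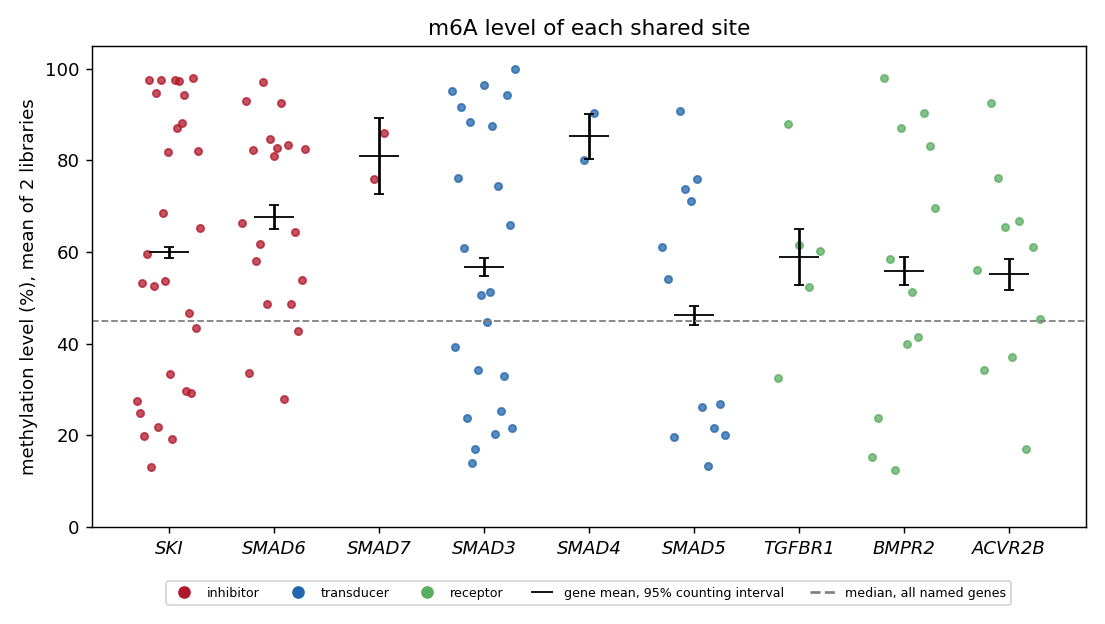
Methylation level (vertical axis, %) of each shared site in the 9 genes, in the direction of transcription from left to right within a gene. Black bars give the gene mean with its 95% counting interval, and the dashed line the median of all named genes, 44.9%; SKI, SMAD3 and BMPR2 span nearly the whole range, and the means of inhibitors (59.9% to 81.0%) overlap those of transducers and receptors (46.2% to 85.2%) only through SMAD4, which has 2 sites.

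**Figure D5:**
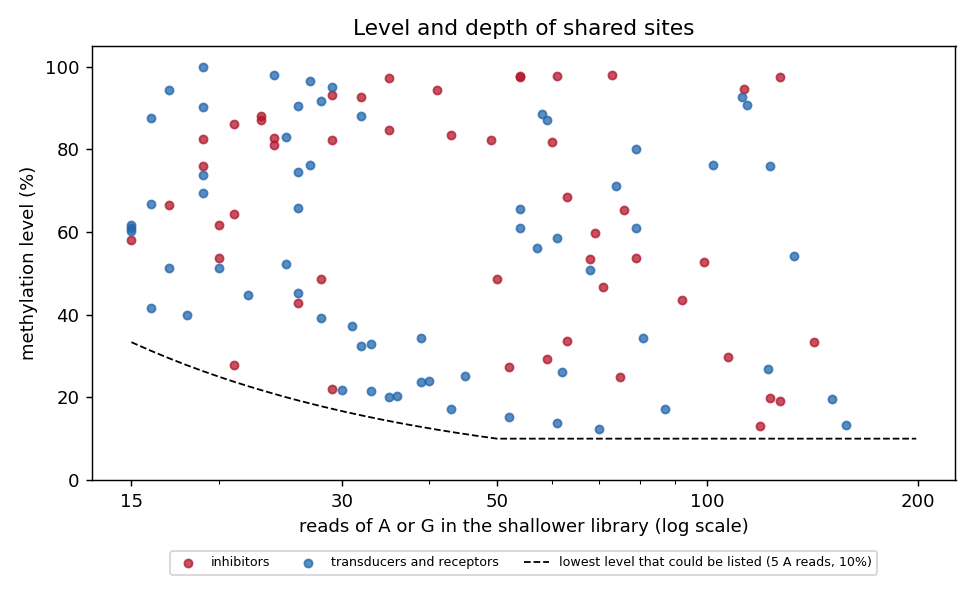
Level (vertical axis, %) of each of the 113 shared sites against its reads in the shallower library (horizontal axis, log scale), for inhibitors and for transducers and receptors. The dashed line is the lowest level allowed in that library by the minimums seen in the lists (5 A reads and 10%), 33.3% at 15 reads and 10% from 50 reads on. A limit on the authors' adjusted p-value is not drawn. No shared site under 20% has fewer than 30 reads there.

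Gene levels were also set beside genes of like coverage. The mean level exceeded the median of its coverage decile in 8 of the 9 genes, as it does in 50% of all named genes. SKI had 59.9% against 40.05% in its decile, SMAD6 67.6% against 52.02% and SMAD7 81.0% against 56.5%. SMAD4 had 85.2% against 48.6%, SMAD3 56.8% and ACVR2B 55.2% against the same 48.6%, TGFBR1 58.9% against 56.5% and BMPR2 55.9% against 55.0%. SMAD5, at 46.2% against 46.4%, was the exception. TGFBR1, BMPR2 and SMAD5 lay within counting error of their decile medians, and the level of SMAD4 rests on 2 shared sites. This count was not tested either, because the genes were chosen with earlier results of these data known.

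The rest of the pathway was read from a list of 66 further genes, grouped by role. Shared sites were found in 40 of them, 224 in all, of which 60 (26.8%) were at 80% or above, against 20.1% in all named genes. Fisher's exact test between replicates called 0 of the 224 sites after adjustment. Its unadjusted p was under 0.05 at 8 of the 224, and at 3.06% of all shared sites. Of the 40 genes, 19 had more shared sites than the median of their coverage decile and 14 fewer, and 23 had a higher level and 17 a lower one. Among all named genes, 45.1% have more shared sites than that median and 50% a higher level. Of the 66, 24 had no listed site in either library, which does not separate absent methylation from low expression.

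Of 17 ligand genes, 8 had shared sites. More sites than the decile median were found in 7 of the 8, and a higher level also in 7 and a lower one in 1. BMP2, a BMP ligand gene, had 27 shared sites at 61.3% ± 0.87, nearly as many as SKI. BMP8A and BMP8B, counted among the 8, are close copies of each other, and their reads may be hard to assign. The 9 other ligand genes, among them TGFB2, TGFB3 and NODAL, had no listed site.

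Of 10 further receptors, 5 had shared sites, 1 with a higher level than the median of its decile and 4 with a lower one. ACVR1B, a type I activin receptor, led with 12 at 66.7% ± 1.4. TGFBR2, the type II partner of TGFBR1, had 2 at 30.6% ± 4.4. All 5 further transducers and SMAD adaptors had shared sites, 0 of them more than the median of their decile, and 2 had a higher level and 3 a lower one. SMAD9 led them with 4 at 45.4% ± 2.6, and SMAD1, the BMP-branch relative of SMAD5, had 3 at 76.1% ± 2.8.

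Of 11 further intracellular inhibitors, 9 had shared sites, 5 with more and 2 with fewer than the median of their decile, and 5 had a higher level and 4 a lower one. Their median gene level was 47.1%, against 54.8% in the further transducers and adaptors and 39.2% in the further receptors. Unlike SKI, SMAD6 and SMAD7, they thus did not lie above both groups as a set. These medians rest on few genes and were not tested. The 54.8% is the level of ZFYVE16, which has 1 shared site (counting SE 7.1), and SMAD2 and ZFYVE9 also have 1 each. TGIF2, a transcriptional corepressor, had 17 at 47.1% ± 0.91, and SKIL, the close relative of SKI, had 3 at 53.5% ± 3.3. Among 9 extracellular antagonists, NOG, which encodes noggin, a trap for BMP ligands, had 9 shared sites at 71.5% ± 1.5, and 7 had no listed site. Of the 2 with shared sites, 1 had a higher level than its decile and 1 a lower one. Of 10 target genes, 8 had shared sites and 7 of these had a higher level than the median of their decile and 1 a lower one. HEY1 had the most, 14 at 43.6% ± 0.75. Of 4 genes for latent TGF-beta binding proteins, which store the ligand, 3 had shared sites, all 3 with a lower level than the median of their decile, with LTBP3 leading at 3 sites and 34.0% ± 3.3.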

How the data were processed

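Per the labels' protocols, oligo(dT)-purified mRNA of HEK293T cells underwent GLORI treatment, and libraries followed a modified eCLIP protocol. Reads were handled with SAMtools, Bowtie, STAR and Trim Galore 0.6.6 on GRCh38, per the submitters' processing notes. Neither site caller nor annotation is given in the sources used here. Per the file headers, the authors deposited for each site the counts of A or G reads and of A reads, and their ratio as a fraction. Per the file headers they also deposited a conversion fraction and a coverage signal per gene, and a p-value and adjusted p-value per site, which were not used in tests. Rows were taken by gene name. From the counts, levels, Wilson intervals, counting errors and Fisher's exact tests were computed (Python 3.11.15, SciPy 1.17.1). The test was checked on simulated reads, with large shifts at sites of at least 50 reads in both libraries. That check does not cover shallower sites or smaller differences. Gene ends came from RefSeq's table of GRCh38.p14, strands from its start windows or, for SKI, from the listed sites. The named sites are the highest, lowest and deepest of each gene; in each role of the pathway list the gene with the most sites is named, and further genes and close pairs were named after their values were seen. Listed sites total 5221660 and 6306522 reads, which is not library depth. The genes, lists and rules were chosen with earlier results of these data known. Alternatives were coverage and level minimums, single libraries, summed counts and a chi-square test; conversion correction, genes left out and other windows were added after seeing the data.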

Additional observations from a re-analysis of the deposited data

Results flagged for a closer look

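Inside the annotated spans of BMPR2 and SMAD7 the files list 1 site each that they assign to no named gene, so the gene comparisons do not use them. Inside BMPR2, position 202521004 of chromosome 2 (plus strand), 144677 nt from the annotated start, was methylated at 56.6% in replicate 1 (162 of 286 reads, 95% Wilson interval 50.8 to 62.3) and at 57.8% in replicate 2 (188 of 325 reads, 52.4 to 63.1). A count of 0 A reads would allow up to 1.05% and 0.923% there. Such bounds leave out A reads from unconverted adenosines. The authors' conversion fraction given with this site was 97.95% in replicate 1 and 97.90% in replicate 2. Its depth exceeded that of every shared BMPR2 site, the deepest of which had 83 reads. Inside SMAD7, position 48950856 of chromosome 18 (minus strand), 109 nt from the annotated start, was listed in replicate 2 only, at 40.9% (9 of 22 reads, 23.3 to 61.3), against the 13.6% that a count of 0 would allow.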

How the results depend on the processing

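No paired analysis was possible because the labels give 1 group. Fisher's exact test called 0 member sites at each coverage or level minimum tried, as did the chi-square test. The mean over inhibitor sites (63.8%) became 62.0% and 55.5% at 30 and 50 reads, 67.8% at a level of 20%, 62.2% after conversion correction and 57.8% with summed counts; single libraries, with all their listed sites, gave 61.3% to 62.6%. The mean over transducer and receptor sites (55.4%) became 44.5%, 52.01%, 63.3%, 54.1% and 51.4% in the same order, and 48.9% to 50.7% in single libraries. The median number of shared sites per gene (12) fell to 7 at 30 reads and 4 at 50, and was 13 to 15 in single libraries. The difference between inhibitors and the others (9.82 points) reversed at 50 reads (-8.87), and was 14.3 at 30 reads, 5.99 at a level of 20%, 14.6 without SKI, 4.09 without SMAD7, 14.9 without SMAD4 and 14.5 to 19.2 in single libraries. The share of sites within 2 kb of the start (31.9%) was 21.3% without SMAD6, 23.01% within 1 kb, and 29.01% to 31.5% in single libraries. Other alternatives kept these group values within their counting interval or, for the median count, within 1.5 times. For single genes, 48 values moved further and 48 did not. Among the first were the means of SMAD3 (35.4% at 30 reads, against 56.8%), SMAD6 (41.1% at 50 reads) and TGFBR1 (43.5% in replicate 2 alone), and the shared sites of SMAD6 (7) and SMAD3 (11) at 30 reads. Beyond the fewer sites kept, the cause was not tested. Depth limits all levels, since the lowest level that can be listed rises as reads fall.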
